A study of Mus musculus with 6 samples.

Results

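Autophagy genes code for the proteins that build the autophagosome, load it with cargo and set its supply of transcripts. In C2C12 cells, a mouse myoblast line, 40 of them were followed across PARP2 silencing. They were chosen by name from the textbook pathway, with earlier results of these data known. The list held 5 genes of the ULK initiation complex, 6 of the class III PI3-kinase complex and its regulators and 5 that supply or read the growing membrane. It also held 10 conjugation genes and proteases, 5 genes of the ATG8 family, 6 cargo receptors and 3 transcription factors. Of these, 39 were read on the arrays, out of 19938 genes with a probe set that names 1 gene, and Optn had none in the annotation used here. shPARP2 cells had received a lentiviral shRNA specific for PARP2, and scPARP2 cells a scrambled, non-specific shRNA delivered in the same way. Both lines were kept in high-glucose DMEM with serum and under puromycin selection, and no agent was added. Silencing rested on 1 shRNA sequence and 1 line of each kind, so PARP2 silencing and other differences between the lines cannot be told apart. Each line had 3 samples, and each sample its own Affymetrix Mouse Gene 1.0 ST array. The sources do not tell whether these samples grew as separate cultures, so a p-value here measures only how far the arrays of a line scatter, and that scatter may be technical.

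Macroautophagy encloses cytoplasm in a double membrane and delivers it to lysosomes. The ULK kinase complex starts the process, a lipid kinase complex marks the site with phosphatidylinositol 3-phosphate (PI3P), and ATG9 vesicles and ATG2 lipid transfer proteins feed the membrane. Conjugation enzymes then couple ATG8 proteins (the LC3 and GABARAP families) to the lipid phosphatidylethanolamine, and receptors that bind ATG8 proteins bring in cargo. In skeletal muscle the pathway removes damaged organelles and takes part in the loss of protein during fasting, and FOXO and TFEB transcription factors are known to switch on many of its genes.

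Parp2 was lower in shPARP2 cells. Its probe set read 7.86, 8.14 and 7.91 on the log2 scale in shPARP2 cells, against 8.94, 9.13 and 9.05 in scPARP2 cells. The lines did not overlap, and Parp2 was 2.10-fold lower (log2 fold change -1.07, standard error 0.10, adjusted p = 0.00103 from limma). Array medians were 7.04 to 7.18. Arrays of shPARP2 cells correlated with each other at 0.989 to 0.992 and those of scPARP2 cells at 0.995, and the median SD per probe set was 0.142 in shPARP2 cells and 0.0753 in scPARP2 cells. Marker genes of differentiated myotubes were higher in shPARP2 cells, 7 of 7 past the test, with Mymk (the fusion protein myomaker) at a log2 fold change of 1.89 and Ckm at 0.30. The call of Ckm ended without any 1 array (adjusted p between 0.0518 and 0.182). The mean log2 value over the 7 myotube markers was 10.27, 10.49 and 10.12 in shPARP2 cells, against 9.13, 9.25 and 9.20 in scPARP2 cells. Of 7 myoblast markers, 4 were higher (Myf5, Itga7, Cdh15 and Des) and Vcam1 was lower, and their mean was 10.37, 10.49 and 10.13 in shPARP2 cells, against 10.01, 10.09 and 10.05 in scPARP2 cells. Des lost its call without shPARP2 replicate 1 or 2 or any 1 scPARP2 array (adjusted p between 0.0743 and 0.148). Over the 6 epithelial and endothelial markers the mean lay between 6.32 and 6.56 in shPARP2 cells and between 6.38 and 6.49 in scPARP2 cells, with 0 of 6 past limma's test and 0 at an unadjusted p under 0.05, as for the 3 measured osteoblast and chondrocyte markers. Single changes among markers of other cell types were lower levels of Lpl (log2 fold change -1.99) in the adipocyte list and Cd68 (-0.72) in the macrophage list. Their lists averaged 6.82 to 7.04 in shPARP2 cells against 7.36 to 7.46 in scPARP2 cells (adipocyte, 5 genes) and at most 6.26 in shPARP2 cells against at least 6.32 in scPARP2 cells (macrophage and leukocyte, 5 genes). No other gene of these lists passed the test. Adipoq (0.08), Plin1 (-0.06), Cidec (0.02) and Cd36 (-0.31) changed far less than Lpl, so the lower adipocyte mean rests mostly on Lpl. RMA values have no true zero, so no marker is listed at 0. In bulk RNA, fewer cells of a type and less RNA per cell cannot be told apart. The part of the muscle markers in the autophagy results below was not tested.

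The autophagy genes moved in both directions. Of the 39 measured, 11 were higher and 8 lower in shPARP2 cells (limma, adjusted p under 0.05 over all 35556 probe sets), and 20 did not pass. The share higher was 28.2%, against 12.4% of all 19938 genes and 23.6% of the 7966 genes at least as bright as Atg4c, the dimmest member. The share lower was 20.5%, against 11.6% of all genes and 20.7% of those bright genes. Against these bright genes, the number of calls was therefore near the background in both directions. On the arrays, 16 members (41.0%) did not overlap between the lines and were higher, and 15 (38.5%) did not overlap and were lower, against 37% and 33.2% of the bright genes. The median log2 fold change was -0.03 over the 39 members and -0.02 over all genes. Called changes were small, between 1.20-fold and 2.20-fold. Only Atg4a and Atg3 among those higher and Calcoco1, Gabarapl1 and Foxo1 among those lower passed the test and changed by at least 1.5-fold. These genes and Atg13 and Atg2a, 7 of the 19 called, also passed the test without each single array in turn. Leaving out 1 array gave between 3 genes higher (without scPARP2 replicate 3) and 9 higher (without shPARP2 replicate 2 or 3), with 6 without shPARP2 replicate 1, 5 without scPARP2 replicate 1 and 4 without scPARP2 replicate 2. It gave between 5 genes lower (without scPARP2 replicate 2 or 3) and 11 lower (without shPARP2 replicate 2).

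**Figure D1:**
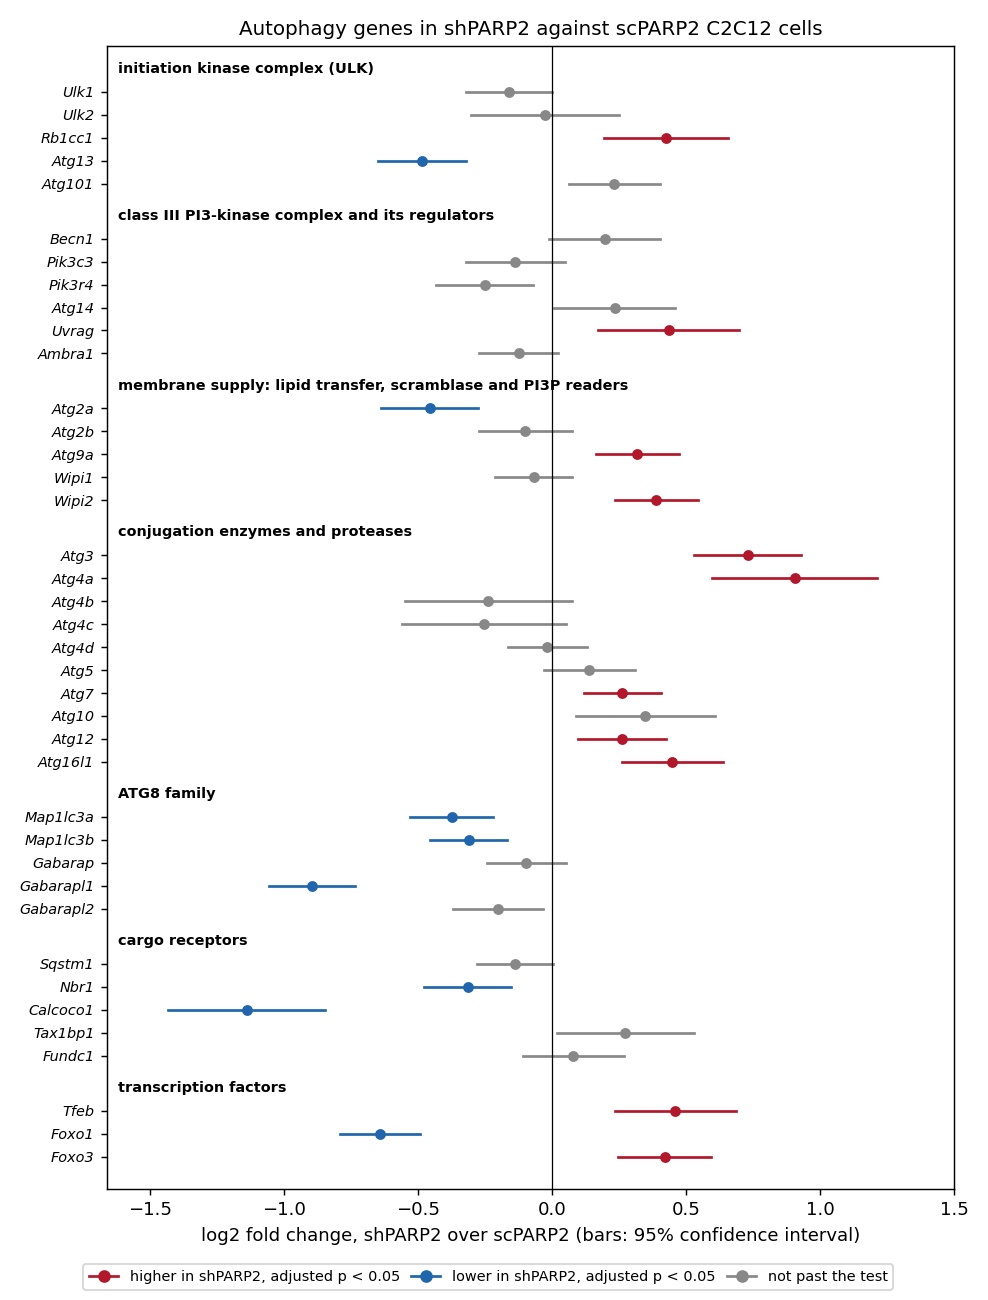
Log2 fold change (shPARP2 over scPARP2, x axis) of the 39 measured autophagy genes, grouped by role. Points are limma estimates from 3 arrays of each line and bars are 95% confidence intervals; 11 genes are higher (red), 8 lower (blue) and 20 did not pass the test (grey), with all 5 ATG8 genes left of 0.

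All 3 transcription factors of the list passed the test, in opposite directions. Among genes at least as bright as Atg4c, 23.6% were called higher and 20.7% lower. Tfeb, the master regulator of lysosome and autophagy genes, read 8.54, 8.71 and 8.44 in shPARP2 cells, against 8.01, 8.11 and 8.19 in scPARP2 cells. Every shPARP2 array lay above every scPARP2 array, and Tfeb was 1.38-fold higher (log2 fold change 0.46, standard error 0.09, adjusted p = 0.0179). Foxo1, a factor that drives atrophy and autophagy genes in muscle, read 8.75, 8.84 and 8.77 in shPARP2 cells, against 9.45, 9.41 and 9.43 in scPARP2 cells. Here the lines lay apart in the other direction, and Foxo1 was 1.56-fold lower (log2 fold change -0.64, standard error 0.06, adjusted p = 0.00118). Its relative Foxo3, which activates LC3 and other autophagy genes in muscle, read 9.97, 9.97 and 10.00 in shPARP2 cells, against 9.66, 9.49 and 9.52 in scPARP2 cells. Foxo3 was thus 1.34-fold higher without overlap (log2 fold change 0.42, standard error 0.07, adjusted p = 0.00939), with the sign opposite to that of Foxo1. The call of Foxo1 held without any 1 array, with an adjusted p of at most 0.0113. Tfeb no longer passed without shPARP2 replicate 1 or scPARP2 replicate 1 or 2 (adjusted p between 0.0517 and 0.0760), nor Foxo3 without scPARP2 replicate 2 or 3 (0.0506 and 0.0545).

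Promoters were read for the letters these factors are known to bind, in RefSeq windows that run from 250 bases before to 50 bases after a gene's start (build GRCm38.p6, both strands). The table held 40 windows for 34 of the members. Not in it were Rb1cc1, Becn1, Atg16l1, Map1lc3a, Pik3c3 and Atg12. The E-box core CACGTG, which TFEB and other E-box factors bind, was in 7.15% of all 32851 windows and in 4 of the 40 member windows (10%). It stood 94 and 71 bases before the start of Atg3, 132 bases before that of Atg7, 14 before that of Atg5 and 1 before that of Atg14. Atg3 and Atg7 rose in shPARP2 cells, and Atg5 and Atg14 did not pass the test. The CLEAR element, a longer palindrome around the E-box core, was in 0.326% of all windows and in 0 member windows, and the FOXO core TGTTTAC was in 3.65% of all windows and in 0 member windows. The antioxidant response element core TGACNNNGC was in 12.4% of all windows and in 4 of the 40 (10%), those of Atg13, Tax1bp1, Map1lc3b and Ulk2. Only these letters were searched, with N as any base, so looser forms of the motifs were not counted. A match of letters is a description and not a binding site. The 150 bases before the start are printed for the higher genes with an E-box core, Atg3 (chr16:45158679-45158828, plus strand) and Atg7 (chr6:114670946-114671095, plus strand, a start that lies 27969 bases inside the gene). Beside them stand the most strongly lowered ATG8 gene and receptor gene, Gabarapl1 (chr6:129533042-129533191, plus strand) and Calcoco1 (chr15:102722179-102722328, minus strand). Capitals mark CACGTG, which the windows of Gabarapl1 and Calcoco1 lack. The windows of the higher genes Uvrag, Atg9a, Wipi2, Atg4a, Tfeb and Foxo3 lack it as well. The printed windows were picked and do not stand for all called genes.
Atg3: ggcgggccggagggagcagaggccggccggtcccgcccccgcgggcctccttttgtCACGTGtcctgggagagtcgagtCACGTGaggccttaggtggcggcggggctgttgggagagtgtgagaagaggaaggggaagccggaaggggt
Atg7: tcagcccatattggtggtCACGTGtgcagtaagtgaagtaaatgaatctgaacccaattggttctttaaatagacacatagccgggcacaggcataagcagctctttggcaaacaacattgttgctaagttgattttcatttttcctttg
Gabarapl1: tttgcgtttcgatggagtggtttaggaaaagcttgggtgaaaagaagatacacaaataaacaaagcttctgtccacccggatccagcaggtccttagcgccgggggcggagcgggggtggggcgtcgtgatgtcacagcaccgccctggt
Calcoco1: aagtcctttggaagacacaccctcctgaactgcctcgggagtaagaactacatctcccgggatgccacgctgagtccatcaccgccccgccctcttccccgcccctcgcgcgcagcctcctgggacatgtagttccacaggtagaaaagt

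In the ULK initiation complex, 1 of 5 genes rose, 1 fell and 3 did not pass the test, with a median log2 fold change of -0.03. These shares (20% each) were near the 23.6% higher and 20.7% lower among genes at least as bright as Atg4c. Both that changed are scaffold subunits. Rb1cc1, which codes for FIP200, the large scaffold of the complex, read 9.88, 10.13 and 10.20 in shPARP2 cells, against 9.68, 9.66 and 9.60 in scPARP2 cells. Atg13, the subunit that links the kinase to FIP200, read 11.438, 11.557 and 11.585 in shPARP2 cells, against 11.995, 12.017 and 12.027 in scPARP2 cells. The lines lay apart for both genes, in opposite directions. Rb1cc1 was 1.34-fold higher (log2 fold change 0.42, standard error 0.10, adjusted p = 0.0266) and passed only with all arrays or without shPARP2 replicate 1, since each other omission gave an adjusted p between 0.0583 and 0.107. Atg13 was 1.40-fold lower (log2 fold change -0.49, standard error 0.07, adjusted p = 0.00439), with an adjusted p of at most 0.0310 without any 1 array. The kinases themselves did not pass. Ulk1 had a log2 fold change of -0.16 (adjusted p = 0.168) and Ulk2 of -0.03 (0.922), and the Atg13 partner Atg101 had 0.23 (0.0705). Ulk1 and Atg101 did not overlap between the lines, and Ulk2 did.

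Among the 6 genes of the class III PI3-kinase complex and its regulators, 1 rose and 5 did not pass, with a median log2 fold change of 0.04. The share higher was 16.7%, against 23.6% of genes at least as bright as Atg4c. Uvrag, a subunit of the complex that acts on endosomes and in autophagosome maturation, read 10.72, 10.66 and 11.04 in shPARP2 cells, against 10.40, 10.33 and 10.39 in scPARP2 cells. The lines did not overlap and shPARP2 replicate 3 stood highest. Uvrag was 1.35-fold higher (log2 fold change 0.44, standard error 0.11, adjusted p = 0.0376). This call was lost without shPARP2 replicate 1 or any 1 scPARP2 array (adjusted p between 0.0675 and 0.128) and after quantile normalization, where Pik3r4 passed as lower instead. The catalytic subunit Pik3c3 (VPS34) had a log2 fold change of -0.14 (adjusted p = 0.305). Its regulatory subunit Pik3r4 (VPS15) read 8.60, 8.78 and 8.63 in shPARP2 cells, against 8.87, 8.95 and 8.95 in scPARP2 cells, without overlap (log2 fold change -0.25, adjusted p = 0.0685), and it passed as lower without shPARP2 replicate 2 (adjusted p = 0.0249). Becn1, the scaffold Beclin 1, had 0.20 (0.192), Atg14, which directs the complex to autophagosome formation, 0.23 (0.158), and Ambra1, a Beclin 1 regulator, -0.12 (0.244).

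Of the 5 genes for membrane supply and PI3P reading, 2 rose, 1 fell and 2 did not pass, with a median log2 fold change of -0.07. The shares were 40% higher and 20% lower, against 23.6% and 20.7% of genes at least as bright as Atg4c. Atg9a, the lipid scramblase of the seed vesicles, read 10.09, 10.13 and 10.02 in shPARP2 cells, against 9.80, 9.74 and 9.74 in scPARP2 cells. Wipi2, the PI3P reader that recruits ATG16L1, read 11.03, 11.09 and 11.13 in shPARP2 cells, against 10.74, 10.69 and 10.66 in scPARP2 cells. Both were higher on every shPARP2 array, Atg9a 1.25-fold (log2 fold change 0.32, standard error 0.06, adjusted p = 0.0173) and Wipi2 1.31-fold (0.39, standard error 0.06, adjusted p = 0.00843). Atg2a, a lipid transfer protein, read 8.90, 9.08 and 8.89 in shPARP2 cells, against 9.42, 9.40 and 9.42 in scPARP2 cells. It was lower on every shPARP2 array, by 1.37-fold (log2 fold change -0.46, standard error 0.07, adjusted p = 0.00795), and passed without any 1 array (at most 0.0442). Its paralog Atg2b had a log2 fold change of -0.10 (adjusted p = 0.441) on 1 probe set and 0.09 (0.472) on the other. The other PI3P reader, Wipi1, had -0.07 (0.532). Atg9a lost its call without shPARP2 replicate 1 or any 1 scPARP2 array (adjusted p between 0.0521 and 0.0920), and Wipi2 without scPARP2 replicate 3 (0.0540).

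Among conjugation genes and proteases, the genes past the test with all arrays equally weighted were higher in shPARP2 cells. Of the 10 conjugation genes and ATG4 proteases, 5 rose, 0 fell and 5 did not pass, and the median log2 fold change was 0.26. At an unadjusted p under 0.05, 6 were higher and 0 lower. For 7 of the 10 the lines lay apart with shPARP2 cells higher, and for 3 they overlapped. Among genes at least as bright as Atg4c, 37% did not overlap and were higher, and 23.6% were called higher. Atg3, the E2-like enzyme that transfers ATG8 proteins to lipid, read 11.13, 11.12 and 11.35 in shPARP2 cells, against 10.45, 10.47 and 10.48 in scPARP2 cells. The gap between the lines was wider than the range within either of them, and Atg3 was 1.66-fold higher (log2 fold change 0.73, standard error 0.08, adjusted p = 0.00209). Atg4a, a protease that trims ATG8 proteins, with a preference for the GABARAP side of the family, read 9.27, 9.64 and 9.18 in shPARP2 cells, against 8.41, 8.50 and 8.47 in scPARP2 cells. It was 1.87-fold higher without overlap (log2 fold change 0.91, standard error 0.13, adjusted p = 0.00456), and a second probe set gave 0.86 (adjusted p = 0.00421). RefSeq lists a pseudogene, Atg4a-ps, on chromosome 3, and signal from the gene and from this copy cannot be told apart here. Neither Atg3 nor Atg4a lost its call without any 1 array, with adjusted p-values of at most 0.0151 and 0.0251.

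Smaller rises were found in the ATG12 conjugation system and its E1. Atg7, the E1-like enzyme of both conjugation systems, read 9.41, 9.41 and 9.45 in shPARP2 cells, against 9.14, 9.19 and 9.16 in scPARP2 cells (1.20-fold higher, log2 fold change 0.26, standard error 0.06, adjusted p = 0.0263). Atg12, the ubiquitin-like protein joined to ATG5, read 9.21, 9.33 and 9.22 in shPARP2 cells, against 8.94, 9.02 and 9.02 in scPARP2 cells (1.20-fold higher, log2 fold change 0.26, standard error 0.07, adjusted p = 0.0431). Atg16l1, which carries the ATG12-ATG5 conjugate to the membrane, read 9.62, 9.57 and 9.75 in shPARP2 cells, against 9.23, 9.24 and 9.12 in scPARP2 cells (1.37-fold higher, log2 fold change 0.45, standard error 0.08, adjusted p = 0.01003). None of these genes overlapped between the lines. Atg5 had a log2 fold change of 0.14 (adjusted p = 0.260) and Atg10, the E2-like enzyme for ATG12, of 0.35 (0.0758), also without overlap. The other proteases overlapped between the lines, with Atg4b at -0.24 (0.294), Atg4c at -0.25 (0.253) and Atg4d at -0.02 (0.901). Atg4b read 8.84, 9.35 and 9.04 and Atg4c 7.94, 8.42 and 8.11 in shPARP2 cells, against 9.28, 9.31 and 9.36 and 8.39, 8.48 and 8.38 in scPARP2 cells. In both, shPARP2 replicate 2 stood above the other shPARP2 arrays, and without it both passed as lower (adjusted p = 0.0328 for Atg4b and 0.0276 for Atg4c). Both also passed as lower with array weights on all 6 arrays. Atg12 passed only with all 6 arrays (adjusted p between 0.0589 and 0.169 without 1 of them) and not after centring of each array on its median. Atg7 failed without shPARP2 replicate 1 or any 1 scPARP2 array (0.0616 to 0.122) and Atg16l1 without scPARP2 replicate 3 (0.0538). The count of 5 higher genes was 4 without shPARP2 replicate 2 or 3, 3 without shPARP2 replicate 1 or scPARP2 replicate 1 or 2, and 2 (Atg3 and Atg4a) without scPARP2 replicate 3.

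**Figure D2:**
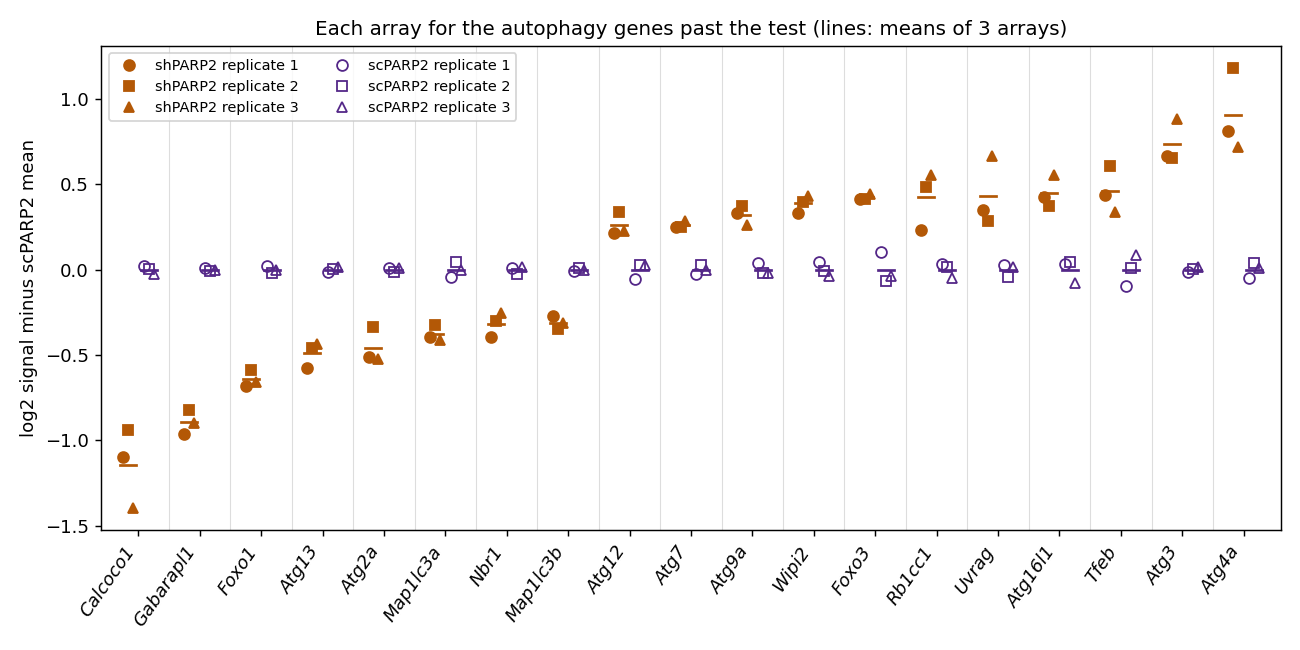
Log2 signal on each array minus the mean of the scPARP2 arrays (y axis) for the 19 autophagy genes past the test, with 3 shPARP2 and 3 scPARP2 arrays per gene and short lines at their means. The shPARP2 points of Atg3 and Atg4a lie above and those of Calcoco1 and Gabarapl1 below all scPARP2 points.

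In the ATG8 family, the proteins that the conjugation enzymes attach, changes ran the other way. On their brightest probe sets all 5 genes read lower on every shPARP2 array than on any scPARP2 array, 3 of 5 passed the test and 0 rose, with a median log2 fold change of -0.31. Among genes at least as bright as Atg4c, 33.2% did not overlap and were lower, and 20.7% were called lower. The ATG8 genes lay between the 80.99th and 99.33rd percentile of signal, above Atg4c at 66.19. No background of their own brightness was counted. At an unadjusted p under 0.05, 4 were lower and 0 higher. The fold changes of all 5 stayed below 0 after quantile normalization and after centring. Gabarapl1, a GABARAP protein and a known FOXO target in muscle, read 11.79, 11.93 and 11.85 in shPARP2 cells, against 12.76, 12.74 and 12.75 in scPARP2 cells. It had the smallest adjusted p of the 39 genes and was 1.86-fold lower (log2 fold change -0.89, standard error 0.07, adjusted p = 0.000487), with an adjusted p of at most 0.00561 without any 1 array. Map1lc3a, which codes for LC3A, read 9.51, 9.58 and 9.49 in shPARP2 cells, against 9.86, 9.95 and 9.90 in scPARP2 cells. It was 1.30-fold lower (log2 fold change -0.37, standard error 0.06, adjusted p = 0.00957). Map1lc3b, which codes for LC3B, the usual marker protein of autophagosomes, read 11.79, 11.71 and 11.75 in shPARP2 cells, against 12.05, 12.07 and 12.06 in scPARP2 cells. It was 1.24-fold lower (log2 fold change -0.31, standard error 0.06, adjusted p = 0.0146). A second probe set of Map1lc3b differed from this one by at most 0.0033 on any array and is no independent measurement. The annotation used here gives no positions for these probe sets, so signal from copies of Map1lc3b elsewhere in the genome cannot be told apart from that of the gene. Gabarapl2 read 11.51, 11.60 and 11.62 in shPARP2 cells, against 11.73, 11.86 and 11.75 in scPARP2 cells (log2 fold change -0.20, adjusted p = 0.103). Gabarap read 13.20, 13.26 and 13.28 in shPARP2 cells, against 13.32, 13.35 and 13.35 in scPARP2 cells (log2 fold change -0.10, adjusted p = 0.369). These remaining genes lay apart by less and did not pass, and RefSeq lists a pseudogene of Gabarapl2 on chromosome 14. A second, far dimmer probe set of Gabarapl2 read 6.28, 5.81 and 6.25 in shPARP2 cells, against 6.29, 6.26 and 6.20 in scPARP2 cells. It overlapped between the lines (log2 fold change -0.14, adjusted p = 0.590), so the separation of all 5 genes holds for the brightest probe sets only. Map1lc3a lost its call without scPARP2 replicate 2 or 3 (adjusted p between 0.0536 and 0.0551) and Map1lc3b without any 1 scPARP2 array (0.0678 to 0.0792). The count of 3 was 2 without scPARP2 replicate 1 and 1 (Gabarapl1) without scPARP2 replicate 2 or 3.

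On the transcript level, 5 of 10 conjugation genes and proteases were thus called higher and 3 of 5 ATG8 genes lower. Among genes at least as bright as Atg4c, 23.6% were called higher and 20.7% lower. Without scPARP2 replicate 3 the counts were 2 of 10 higher and 1 of 5 lower. Without shPARP2 replicate 2, 4 of the 10 conjugation genes and proteases were higher and 2 lower. The mean log2 value over these 10 genes was 9.24, 9.42 and 9.32 in shPARP2 cells, against 9.04, 9.10 and 9.06 in scPARP2 cells. Over the 5 ATG8 genes it was 11.56, 11.62 and 11.60 in shPARP2 cells, against 11.94, 11.99 and 11.96 in scPARP2 cells. Neither mean overlapped between the lines. Transcript levels say nothing of lipidated protein or of flux, which were not measured on these arrays.

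Of the 5 cargo receptors read, 2 fell, 0 rose and 3 did not pass, with a median log2 fold change of -0.14 (at an unadjusted p under 0.05, 1 was higher and 2 lower). Lower calls made up 20.7% of genes at least as bright as Atg4c and 11.6% of all genes. With so few receptors, the count is not read as a result about them as a group. Calcoco1, a receptor for ER and Golgi membranes that was first described as a transcriptional coactivator, read 10.97, 11.13 and 10.67 in shPARP2 cells, against 12.09, 12.07 and 12.04 in scPARP2 cells. The lowest scPARP2 array lay well above the highest shPARP2 array, and Calcoco1 was 2.20-fold lower (log2 fold change -1.14, 95% confidence interval -1.43 to -0.85, standard error 0.12, adjusted p = 0.00168). This was the largest change among the 39 genes, and it passed without any 1 array (at most 0.0119). Nbr1, a receptor for ubiquitinated proteins and peroxisomes, read 10.71, 10.80 and 10.85 in shPARP2 cells, against 11.11, 11.08 and 11.12 in scPARP2 cells. It was 1.24-fold lower without overlap (log2 fold change -0.31, standard error 0.07, adjusted p = 0.0215), a call that ended without shPARP2 replicate 1 or any 1 scPARP2 array (adjusted p between 0.0584 and 0.103). Sqstm1, which codes for p62, the best known receptor of ubiquitinated cargo and also an NRF2 target, read 13.65, 13.71 and 13.69 in shPARP2 cells, against 13.82, 13.81 and 13.83 in scPARP2 cells. Its values did not overlap but the difference was small (log2 fold change -0.14, adjusted p = 0.177). Tax1bp1, a receptor related to Calcoco1, had 0.27 (0.143) and the mitophagy receptor Fundc1 had 0.08 (0.594).

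**Figure D3:**
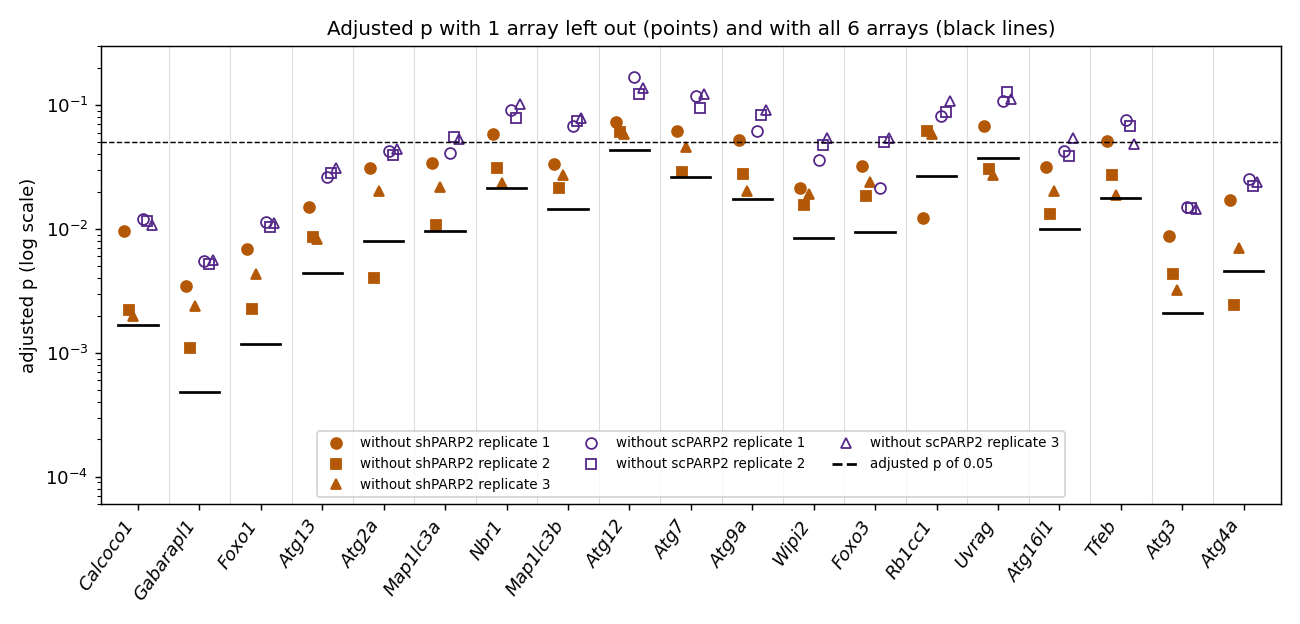
Adjusted p from limma (log axis) of the 19 called autophagy genes with all 6 arrays (black lines) and with 1 array left out (points, by array), with the threshold of 0.05 dashed. For 7 genes, among them Gabarapl1, Calcoco1 and Atg3, every point lies below the threshold.

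Other genes of the pathway also moved in both directions. Of 18 other autophagosome formation genes, 5 rose (27.8%) and 6 fell (33.3%), with a median log2 fold change of -0.12. The shares were 23.6% and 20.7% among the bright genes, and 12.4% and 11.6% among all genes. The largest changes were lower Trp53inp1, a p53 target that binds ATG8 proteins (-0.94, adjusted p = 0.00135), higher Tmem41b, an ER scramblase (0.76, 0.00220), lower Tecpr1, which binds ATG12-ATG5 (-0.71, 0.00228), and lower Wdr45, the PI3P reader WIPI4 that partners ATG2 (-0.70, 0.000941). Wdr45 read 9.86, 9.87 and 9.94 in shPARP2 cells, against 10.58, 10.62 and 10.56 in scPARP2 cells, and so was lower on every shPARP2 array, like Atg2a. Its paralog Wdr45b went the other way, higher without overlap (0.42, adjusted p = 0.0130). Wdr45b lost its call without scPARP2 replicate 2 or 3 (0.0589 and 0.0679). Of 17 genes for fusion with lysosomes, 3 rose (17.6%) and 2 fell (11.8%), both below the shares of the bright genes (median 0.00). Against all genes, the share higher was larger and the share lower about the same. The formation and fusion lists reach below Atg4c in signal, down to the 56.14th and 59.73rd percentile, so no share is a matched background. Changed most in that list were Tgm2, a transglutaminase (-1.17, adjusted p = 0.00121), the SNAREs Vamp8 (-0.59, 0.00746) and Ykt6 (0.49, 0.0151), and the tether Epg5 (0.44, 0.00993). Among 16 further measured genes for mitophagy and ER-phagy, 2 rose and 2 fell (12.5% each), with a median of -0.07. This was below the shares of the bright genes and near those of all genes. The ER-phagy receptors Retreg2 (-0.56, adjusted p = 0.00183) and Retreg1 (-0.36, 0.0166) were lower, and Tollip (0.55, 0.00184) and the ferritin receptor Ncoa4 (0.29, 0.0223) were higher. Ykt6 and Ncoa4 lost their calls without any 1 scPARP2 array (adjusted p between 0.0601 and 0.107), Epg5 without scPARP2 replicate 2 or 3 (0.0513 and 0.0521) and Retreg1 without shPARP2 replicate 1 or any 1 scPARP2 array (0.0517 to 0.0821). Counts without 1 array were 3 to 5 higher and 5 to 7 lower for formation, 0 (without scPARP2 replicate 2 or 3) to 3 higher and 2 to 5 (without shPARP2 replicate 2) lower for fusion, with 1 higher without scPARP2 replicate 1. For these mitophagy and ER-phagy genes they were 1 (without any 1 scPARP2 array) to 2 higher and 1 (without shPARP2 replicate 1 or any 1 scPARP2 array) to 4 (without shPARP2 replicate 2) lower.

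Upstream control by mTORC1, which holds autophagy back, and AMPK, which promotes it, was read from 24 genes, of which 6 rose (25.0%) and 2 fell (8.33%), with a median of 0.07. The shares were 23.6% higher and 20.7% lower among the bright genes, and 12.4% and 11.6% among all genes. The list reaches below Atg4c in signal, down to the 47.49th percentile, so neither share is a matched background. The count is not read as a result about this list. Rheb, the GTPase that activates mTORC1, read 11.58, 11.79 and 11.81 in shPARP2 cells, against 10.48, 10.58 and 10.58 in scPARP2 cells. Its values lay far apart (log2 fold change 1.18, adjusted p = 0.000438). Fnip1, a folliculin partner (0.68, 0.0122), and Sesn3, a sestrin that restrains mTORC1 (0.59, 0.00651), were also higher, and the mTOR inhibitor Deptor was lower (-0.52, 0.0137). The other genes past the test were Rragc (0.45, 0.0184), Rraga (0.37, 0.0170) and Mtor itself (0.27, 0.028), all higher. Prkaa1, an AMPK subunit, was lower (-0.30, 0.0199). Among the genes that rose, Sesn3 alone is described here as a restraint on mTORC1. Rraga and Rragc lost their calls without any 1 scPARP2 array (adjusted p between 0.0573 and 0.0805). Mtor and Prkaa1 lost theirs without shPARP2 replicate 1 or any 1 scPARP2 array (0.0571 to 0.1415). Deptor lost its call without any 1 scPARP2 array (adjusted p between 0.0563 and 0.0591) and Fnip1 without scPARP2 replicate 2 or 3 (0.0529 and 0.0542). Without 1 array the list had 2 (without scPARP2 replicate 2 or 3) to 6 genes higher and 0 (without any 1 scPARP2 array) to 2 lower, with 3 higher without scPARP2 replicate 1 and 1 lower without shPARP2 replicate 1.

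Of 14 genes for TFE factors, other FOXO factors and FOXO atrophy targets, 0 rose and 4 fell (28.6%; median -0.15), against 20.7% of the bright genes and 11.6% of all genes lower, and 1 was higher and 6 lower at an unadjusted p under 0.05. After quantile normalization 1 rose and 5 fell. Fbxo32, which codes for atrogin-1, the muscle ubiquitin ligase and a FOXO target, read 8.72, 8.75 and 8.93 in shPARP2 cells, against 10.31, 10.52 and 10.40 in scPARP2 cells. It was 3.05-fold lower without overlap (log2 fold change -1.61, adjusted p = 0.000183). Cited2 (-0.52, 0.00372), Map1lc3b, already given above, and Ccng2 (-0.29, 0.0414) were the others that fell. Trim63, which codes for MuRF1, the other muscle ligase of this kind, had a log2 fold change of -0.00 (adjusted p = 0.977), chosen after its value was seen. Ccng2 lost its call without shPARP2 replicate 1 or 2 or any 1 scPARP2 array (adjusted p between 0.0604 and 0.154). The list had 2 lower genes without any 1 scPARP2 array, 3 without shPARP2 replicate 1 and 5 without shPARP2 replicate 3.

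**Figure D4:**
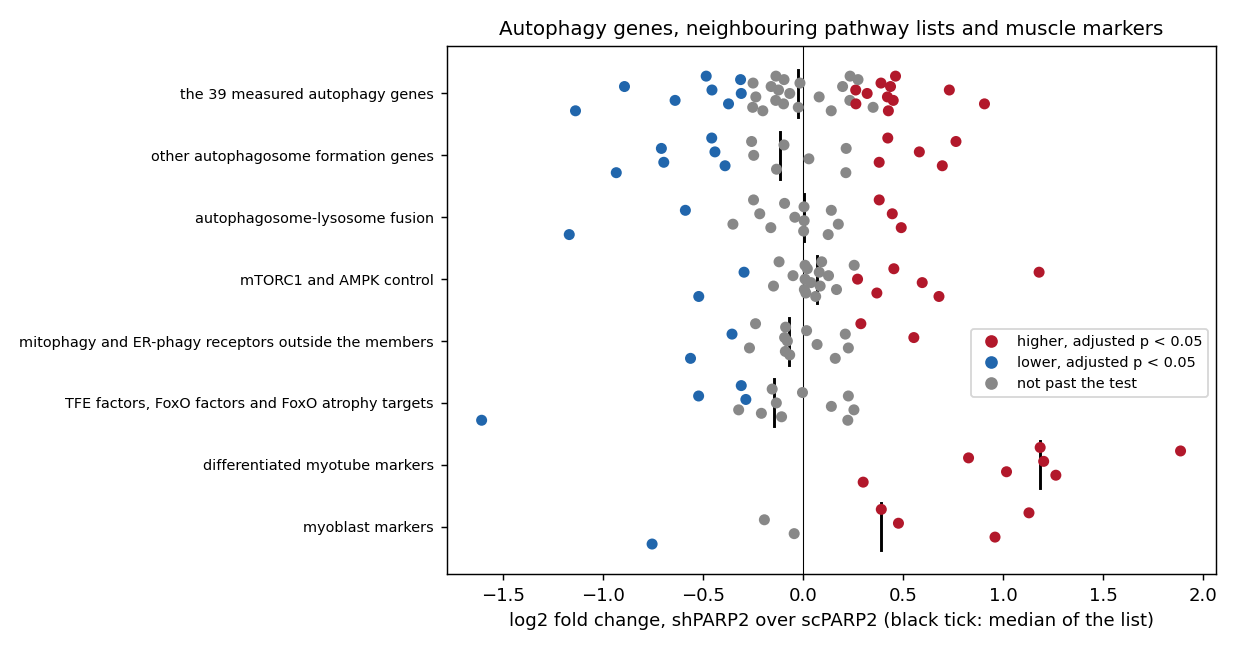
Log2 fold change (shPARP2 over scPARP2, x axis) of each gene in the autophagy list, the neighbouring pathway lists and the muscle marker lists, with the median of each list as a black tick. The 39 autophagy genes spread to both sides of 0 (median -0.03), whereas all 7 myotube markers lie above 0 (median 1.18).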

How the data were processed

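The arrays were those of 3 shPARP2 and 3 scPARP2 samples of C2C12 cells. The authors made log2 values with RMA per the labels and deposited them for 35556 probe sets; the RMA version is not given in the sources used here. RMA scales all arrays to each other, so a shift shared by most genes would be largely removed. The deposited values did not share a distribution exactly, with array medians of 7.04 to 7.18. Arrays give no read depth, and the number of arrays limits the precision. Names came from the platform annotation and were updated through the gene ID to RefSeq symbols (GRCm38.p6): 21789 probe sets name 1 gene, 1621 name several and were not used for names. A gene was read from its brightest probe set (mean of 6 arrays).

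All probe sets were fitted in limma 3.58.1 (R 4.3.3; lmFit, eBayes, no covariate), the model of the study's methods, with p-values adjusted by Benjamini-Hochberg over the whole table, an adjusted p under 0.05 and 95% confidence intervals. The members, lists and rules were chosen with earlier results of these data known. Members past the test are given by array. Of each pathway list, up to 4 genes with the largest change past the test are given. The other called genes of the mTORC1 and AMPK list, and Wdr45b, were added after their values were seen. On simulated data with 200 changed of 35556 probe sets, log2 changes of 0.3, 0.6, 1 and 2 were called for 0%, 40%, 62% and 98% of 50 probe sets each, with 4 unchanged probe sets called; the arrays hold far more calls, so these shares do not carry over to them. Alternatives were leaving out each array, the replicate number as a block, array weights, quantile normalization, centring, a trended and robust variance, omission of dim probe sets (under the 40th percentile) or of those that do not name 1 gene, averaging over probe sets of a gene, and stricter thresholds. Figures were drawn with matplotlib 3.10.9.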

Additional observations from a re-analysis of the deposited data

How the results depend on the processing

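No called autophagy gene changed sign under any alternative, but for most alternatives this was fixed in advance. The lines did not overlap for any called gene, so omission of 1 array could not reverse a sign. The block, the trended variance, the probe set filters and the stricter thresholds leave the fold change of a gene as it is. Without 1 array, between 3 and 9 genes were higher (11 with all arrays) and between 5 and 11 lower (8 with all arrays). For conjugation genes and proteases the range was 2 to 4 higher (5 with all), and for the ATG8 family 1 to 3 lower (3 with all). The alternatives of these role counts were chosen after seeing the data. An adjusted p under 0.01 left 4 genes higher, 2 of them among the conjugation genes and proteases. Asking for at least 1.5-fold left 2 higher, both among the conjugation genes and proteases, and 3 lower, 1 of them an ATG8 gene. Same-numbered samples did not deviate together (correlations -0.05, 0.09 and 0.01), so the numbers were not taken as pairs. With the replicate block, 6 genes were higher and 6 lower, with 3 of the conjugation genes and proteases higher. The calls that ended with the block were those of Rb1cc1, Uvrag, Atg9a, Atg7, Atg12, Map1lc3b and Nbr1. Quantile normalization, centring, both probe set filters, trended variance, array weights and the mean of probe sets gave 10 to 13 higher and 8 to 12 lower. Parp2 passed under each alternative run for it. The spread of 3 arrays limits small changes, and members just over the threshold have no firm call. A call lost without 1 array need not mean that this array made the change, since omission also leaves fewer arrays. Without 1 scPARP2 array, for example, the log2 fold change stayed between -0.31 and -0.32 for Map1lc3b and between 0.41 and 0.45 for Uvrag.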
